A study of Mus musculus with 9 samples.

Results

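The 10 genes described here encode zinc transporters: 6 of the Slc39a (ZIP) family, namely Slc39a1, Slc39a4, Slc39a7, Slc39a8, Slc39a10 and Slc39a14, and 4 of the Slc30a (ZnT) family, namely Slc30a5, Slc30a7, Slc30a9 and Slc30a10. They were taken by gene symbol from a table of 21878 symbols, in which all 10 were found, and they are 10 of the 24 genes of both families in that table. ZIP proteins move zinc into the cytosol, from outside the cell or out of organelles, and most ZnT proteins move it the other way, out of the cell or into organelles, while the mitochondrial SLC30A9 moves it out of an organelle. Several of them carry other metals as well: SLC39A8 and SLC39A14 also import manganese and iron, and SLC30A10 is above all a manganese exporter, which works in liver and intestine. The zinc-sensing transcription factor MTF1 switches on metallothionein genes and the exporter gene Slc30a1 when free zinc rises, and excess copper can free zinc from metallothionein.

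The series has 9 samples in 3 groups of 3, all C57BL/6 mouse hepatocytes that were reprogrammed to liver progenitors with growth factors and small molecules, transduced with a lentivirus, matured again for 3 weeks and then given copper chloride for 24 hours. The dose is 100 µM in the labels' protocols and 100 mM in their treatment field. KO-ATP7B cells were ATP7B-/- with an ATP7B lentivirus, KO-GFP cells were ATP7B-/- with a GFP lentivirus, and WT-GFP cells were wild type with a GFP lentivirus, per the titles and the design text. For the wild-type cells the growth protocol in the labels names ATP7B in place of GFP, and this conflict could not be settled. The 9 count columns of the table bear numbers only, and 2 of them could be tied to a sample, both of the WT-GFP group (replicates 1 and 2), through files that those samples have of their own. The values below therefore describe copper-exposed wild-type cells in 2 libraries, and no comparison of genotypes or vectors is given. All groups received copper, so there is no untreated background. Whether the replicates are separate mice, cultures or aliquots is not in the labels, so the spread between them may be technical.

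The libraries held 18532457 and 17821682 counts, in replicates 1 and 2 respectively. Of 6 hepatocyte markers 5 were at 10 FPKM or more (fragments per kilobase of gene, scaled to library size). They ran from Hnf4a at 50.4 FPKM to Alb at 930 FPKM, and Serpina1c was at 9.42 FPKM. Of 6 progenitor and biliary markers 5 reached 10 FPKM, from Krt7 at 10.4 to Cd24a at 649 FPKM. Epcam was at 2.04 FPKM. Among all genes with a count in either library, 63.9% lay below 10.9 FPKM. Hepatocyte genes outside the list varied: Apob had 50889 and 47943 counts and Arg1 13 and 7. These short lists do not measure how mature the cells were. Of 3 mesothelial markers Msln was at 1159 ± 20.7 FPKM (SD, n = 2), Upk3b at 3.06 ± 0.393 FPKM and Wt1 at 0.266 ± 0.0933 FPKM. Of 4 macrophage markers Cd68 was at 17.1 ± 3.34 FPKM and Csf1r at 2.15 ± 0.249 FPKM, and Adgre1 and Clec4f had no counts. The 9 endothelial, stellate and lymphocyte markers were each below 1 FPKM. In a bulk sample, fewer cells of a type and less RNA per cell cannot be told apart. Counting intervals below are 95% exact (Clopper-Pearson), and, like the limit of 3 counts, they hold for counting error alone, since the labels name no molecular identifiers and PCR copies of a read are not independent.

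Transcripts of 3 Slc39a genes led the set. Slc39a7, Slc39a1 and Slc39a14 stood highest of the 10 genes per unit of length, and together they made up 69.6% ± 0.181 (SD, n = 2) of the summed FPKM of the 14 Slc39a genes. Slc39a8 and Slc30a10 stood lowest, the latter at 2 counts in each library. Of the 10 genes, 5 reached 10 FPKM, 3 lay between 1 and 10 FPKM and 2 were below 1 FPKM. Above the limit of 3 counts their levels spanned from 0.542 to 50.8 FPKM. The median of the 10 was 12.2 FPKM, against a median of 4.76 FPKM over the other 14 genes of both families. With exon lengths from GENCODE 3 of the 10 reached 10 FPKM, and the medians were 7.05 and 4.83 FPKM. For scale, of all genes with a count in either library, 63.9% lay below Slc39a6, at 10.9 FPKM. For Slc39a11, at 8.91 FPKM, it was 59.3%. Both are family genes outside the set, on the deposited scale. No gene of the set lay among the top 1000 symbols by mean FPKM: the highest, Slc39a7, had rank 1391.

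**Figure D1:**
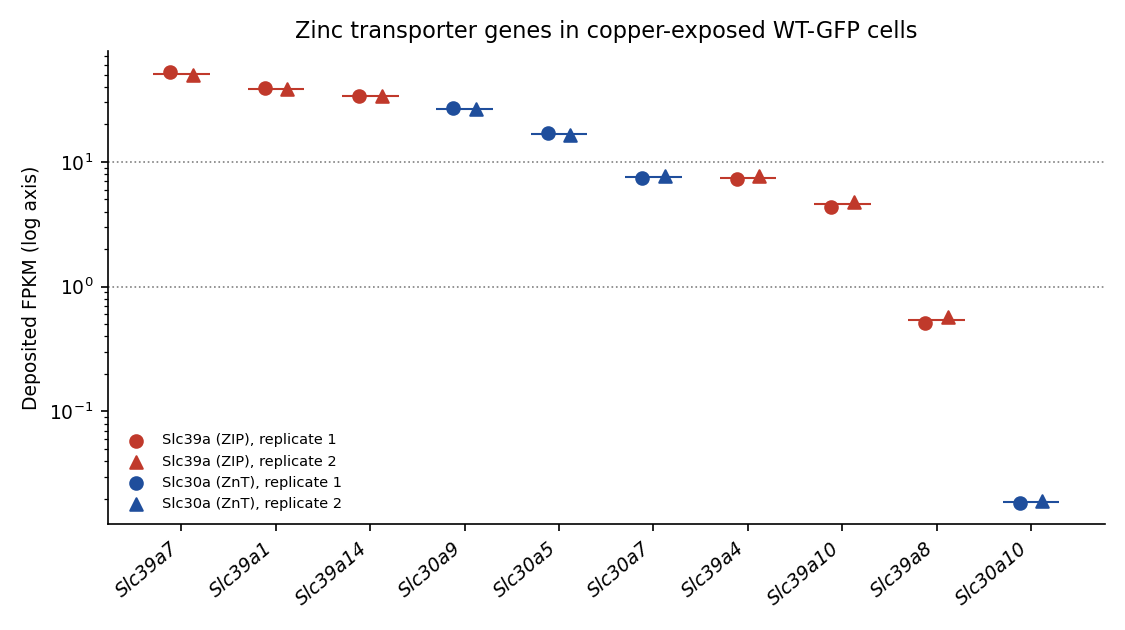
Deposited FPKM (log axis) of the 10 zinc transporter genes in WT-GFP replicate 1 (circles) and replicate 2 (triangles), with the mean as a line; dotted lines mark 10 and 1 FPKM. The 5 genes on the left lie above 10 FPKM in both libraries, and Slc39a8 and Slc30a10 lie below 1 FPKM.

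Slc39a7 releases zinc from the endoplasmic reticulum and Golgi into the cytosol. The gene (ENSMUSG00000024327.16, protein-coding, on the minus strand of chromosome 17 from 34028269 to 34031682 in GRCm38) was at 52.3 FPKM in replicate 1 and 49.3 FPKM in replicate 2, from 2457 and 2228 counts. It was the highest gene of either family, with 28.7% ± 0.553 of the summed Slc39a FPKM (SD, n = 2). Its exons share 2084 bases with Gm20427, a processed transcript on the same strand, so reads of the pair may not be separable.

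Slc39a1 is a widely expressed importer of the plasma membrane. The gene (ENSMUSG00000052310.9, protein-coding, on the plus strand of chromosome 3 from 90248172 to 90253612) was at 38.8 FPKM in replicate 1 and 38.5 FPKM in replicate 2, from 1695 and 1618 counts. In CPM, which are counts scaled to the library total, it was at 91.5 (95% interval 87.2 to 95.9) and 90.8 (86.4 to 95.3), and the intervals overlap almost wholly.

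Slc39a14 is the importer known in hepatocytes for taking up zinc during inflammation, iron not bound to transferrin, and manganese. The gene (ENSMUSG00000022094.15, protein-coding, on the minus strand of chromosome 14 from 70303469 to 70351425) had the most counts of the 10, 5242 and 5018. It was at 34.0 FPKM in replicate 1 and 33.8 FPKM in replicate 2, and took 19.1% ± 0.364 of the summed Slc39a FPKM. Slc39a8, its closest relative in the family, stood far lower. That gene (ENSMUSG00000053897.15, protein-coding, on the plus strand of chromosome 3 from 135825279 to 135888572) had 39 and 42 counts and was at 0.511 FPKM in replicate 1 and 0.572 FPKM in replicate 2. Per length Slc39a14 exceeded Slc39a8 by 66.5 times in replicate 1 and 59.1 times in replicate 2. With exon lengths from the GENCODE annotation in place of those behind the deposited FPKM, the ratios were 97.6 and 86.8.

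The other 2 Slc39a genes of the set stood between 1 and 10 FPKM. Slc39a4 is the importer of the intestinal epithelium whose loss causes the zinc deficiency disease acrodermatitis enteropathica. The gene (ENSMUSG00000063354.7, protein-coding, on the minus strand of chromosome 15 from 76612383 to 76617384) was at 7.31 FPKM in replicate 1 and 7.66 FPKM in replicate 2, from 373 and 376 counts. Slc39a14 exceeded it by 4.65 and 4.41 times, or 4.14 and 3.93 times with GENCODE exon lengths. Slc39a10 is a plasma membrane importer that can pair with SLC39A6. The gene (ENSMUSG00000025986.6, protein-coding, on the minus strand of chromosome 1 from 46807544 to 46892852) was at 4.38 FPKM in replicate 1 and 4.78 FPKM in replicate 2, from 607 and 637 counts. Its partner Slc39a6 was higher per length by 2.46 times in replicate 1 and 2.30 times in replicate 2. With GENCODE exon lengths the ratios were 1.91 and 1.79.

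Among the ZnT genes of the set, that of the mitochondrial transporter led on the deposited scale. SLC30A9 exports zinc from mitochondria. The gene (ENSMUSG00000029221.15, protein-coding, on the plus strand of chromosome 5 from 67306955 to 67358443) was at 26.9 FPKM in replicate 1 and 26.3 FPKM in replicate 2, from 1703 and 1600 counts. On the deposited scale it was the highest of the 10 Slc30a genes, with 25.5% ± 0.647 of their summed FPKM (SD, n = 2). This place rests on a short gene length: 3410 bases lie behind the deposited FPKM, whereas the GENCODE exons add up to 12374 bases. With the latter it was at 7.34 FPKM, below Slc30a5 at 7.65 FPKM, and took 9.95% ± 0.369 of the family's sum.

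SLC30A5 and SLC30A7 load zinc into the early secretory pathway, where enzymes such as alkaline phosphatase receive it, and SLC30A5 does so paired with SLC30A6. Slc30a5 (ENSMUSG00000021629.10, protein-coding, on the minus strand of chromosome 13 from 100802648 to 100833427) was at 17.1 FPKM in replicate 1 and 16.4 FPKM in replicate 2, from 1056 and 974 counts. Slc30a7 (ENSMUSG00000054414.4, protein-coding, on the minus strand of chromosome 3 from 115938973 to 116007406) was at 7.40 FPKM in replicate 1 and 7.77 FPKM in replicate 2, from 1359 and 1373 counts. Slc30a7 thus had more counts and a lower level per length than Slc30a5, with a ratio of 0.432 in replicate 1 and 0.473 in replicate 2. GENCODE exon lengths bring the pair closer, to ratios of 0.844 and 0.925. Slc30a6, the partner gene, stood below Slc30a5, which exceeded it by 2.43 and 2.34 times, or 1.54 and 1.48 times with GENCODE exon lengths. Of the exons of Slc30a7, 637 bases are shared with the processed pseudogene Gm43106 and 1165 bases with Gm6649, both on the opposite strand, and nothing in the sources used here says whether the counting used strand.

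Slc30a10, the manganese exporter gene (ENSMUSG00000026614.6, protein-coding, on the plus strand of chromosome 1 from 185454848 to 185468762), had 2 counts in each library. That is 0.108 CPM in replicate 1 (95% interval 0.0131 to 0.390) and 0.112 CPM in replicate 2 (0.0136 to 0.405). Both lie under the limit of 3 counts that is used here for a count of 0, which is 0.162 and 0.168 CPM, so no level above that limit was measured and no fold against other genes is given. Its exons share 533 bases with Gm2061 on the opposite strand.

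The order of the 10 genes per length, from the highest, was Slc39a7, Slc39a1, Slc39a14, Slc30a9, Slc30a5, Slc30a7, Slc39a4, Slc39a10, Slc39a8 and Slc30a10. Of the 9 pairs of neighbours in this order, 1 overlapped in range over the libraries: Slc30a7 at 7.58 ± 0.265 FPKM (SD, n = 2) and Slc39a4 at 7.49 ± 0.249 FPKM did not differ beyond their spread. In the last pair Slc30a10 lay under the limit of 3 counts, so its range over the libraries is no measured spread. On the deposited scale the closest pair without overlap was Slc39a1 over Slc39a14, with a ratio of means of 1.14. With GENCODE exon lengths Slc39a1 was at 38.5 FPKM and Slc39a14 at 26.7 FPKM. Ranges over the libraries thus leave out the uncertainty in gene length. The widest gap between genes above the limit of 3 counts was that from Slc39a10, at 4.58 ± 0.283 FPKM, to Slc39a8, at 0.542 ± 0.0433 FPKM, or 8.45 times (19.3 times with GENCODE exon lengths). With GENCODE exon lengths 1 pair changed places, Slc30a5 at 7.65 FPKM standing above Slc30a9 at 7.34 FPKM. Lengths differed most for Slc30a9 (3.63 times longer in GENCODE), Slc30a5 (2.19 times) and Slc39a8 (1.86 times), against a median of 1.14 times over 14914 symbols.

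**Figure D2:**
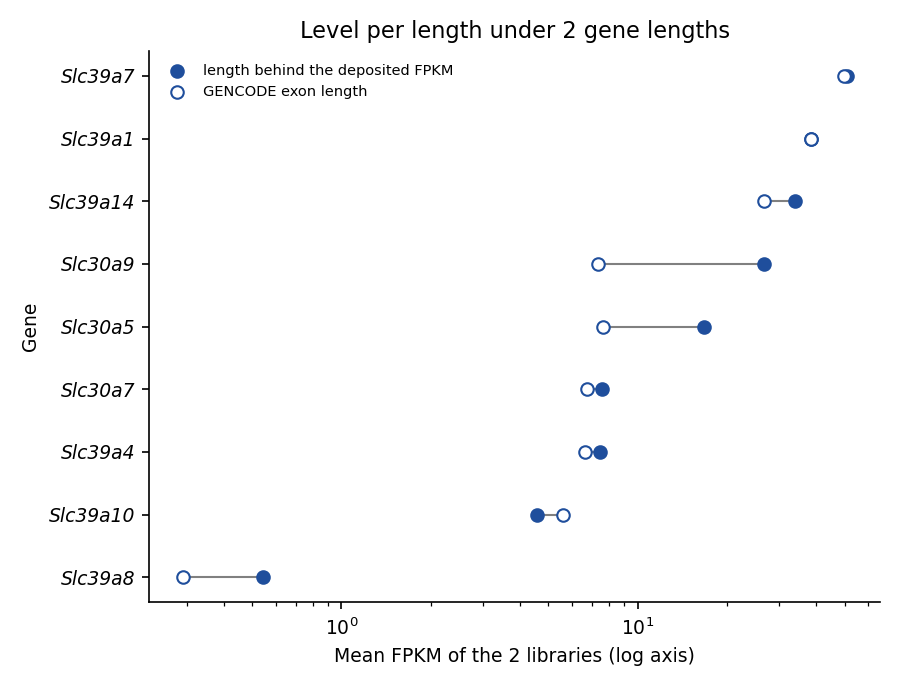
Mean FPKM over the 2 WT-GFP libraries (log axis) of 9 of the 10 genes, with the length behind the deposited values (filled) and with the GENCODE exon length (open); Slc30a10, whose 2 lengths are equal, is left out. Slc30a9 falls from 26.6 to 7.34 FPKM and Slc30a5 from 16.8 to 7.65 FPKM, while Slc39a7 and Slc39a1 hardly move.

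Within the families, the 6 Slc39a genes of the set made up 76.8% ± 0.664 of the summed FPKM of all 14 Slc39a genes (SD, n = 2), and the 4 Slc30a genes of the set 48.8% ± 1.07 of the sum of all 10. With GENCODE exon lengths these shares were 77.2% ± 0.708 and 29.5% ± 0.758. Of the other 8 Slc39a genes, 2 reached 10 FPKM: Slc39a9, a transporter of the Golgi, at 11.6 ± 0.680 FPKM and Slc39a6 at 10.9 ± 0.141 FPKM. With GENCODE exon lengths Slc39a9 was at 6.06 FPKM and Slc39a11 at 11.4 FPKM, so these genes change sides of 10 FPKM. Slc39a11 was at 8.91 ± 0.914 FPKM, Slc39a3 at 5.08 ± 0.339 FPKM and Slc39a13 at 4.44 ± 0.342 FPKM. Exons of Slc39a9 share 459 bases with Erh and those of Slc39a13 215 bases with Psmc3, both protein-coding and on the opposite strand. Whether the counting used strand is not known. Slc39a2, whose exons share 151 bases with Mettl17 on the same strand, had 10 and 8 counts. Slc39a5 had 0 counts in replicate 1 and 2 in replicate 2, as did Slc39a12, both under the limit of 3 counts.

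Of the other 6 Slc30a genes, 2 exceeded 20 FPKM. Slc30a4, which moves zinc into vesicles and lysosomes, was at 22.8 ± 1.06 FPKM and Slc30a1, the exporter of the plasma membrane, at 21.8 ± 0.921 FPKM. With GENCODE exon lengths Slc30a4 was at 22.8 FPKM and Slc30a1 at 22.3 FPKM, both above Slc30a9 at 7.34 FPKM. Exons of Slc30a1 share 468 bases with 1700034H15Rik and those of Slc30a4 130 bases with 4930417H01Rik, both on the opposite strand. Slc30a6 was at 7.02 ± 0.0157 FPKM and Slc30a2 at 1.91 ± 0.439 FPKM. Slc30a3 had 0 and 4 counts, and Slc30a8, the zinc transporter of insulin granules, had none. By the limit of 3 counts that allows up to 0.162 and 0.168 CPM, and the upper ends of the two-sided exact intervals were 0.199 and 0.207 CPM. Exporters of the cell surface thus held unlike levels: Slc30a1 was read from 2102 and 2146 counts and Slc30a10 from 2 and 2.

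**Figure D3:**
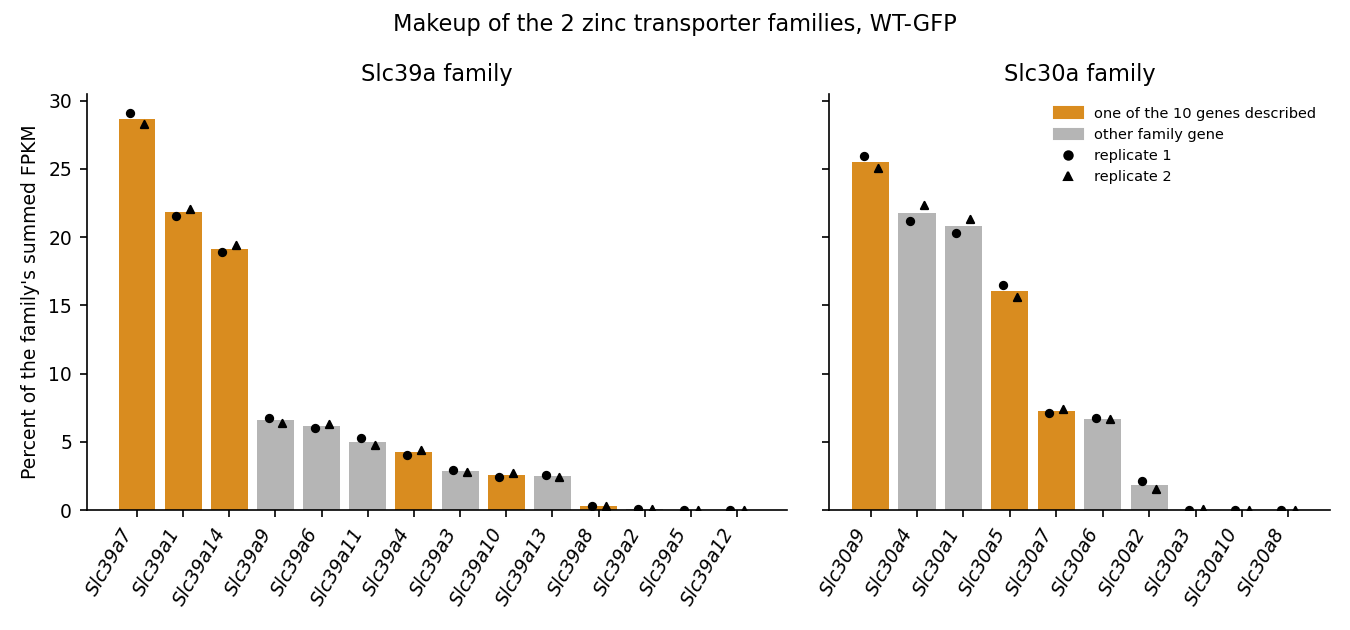
Share of each gene in the summed FPKM of its family (bars, mean over 2 WT-GFP libraries; circles, replicate 1; triangles, replicate 2), for the Slc39a family on the left and the Slc30a family on the right; orange marks the 10 genes described. Slc39a7, Slc39a1 and Slc39a14 take 69.6% of the Slc39a sum, whereas Slc30a9 at 25.5%, Slc30a4 at 21.8% and Slc30a1 at 20.8% are close to one another. The latter holds for the deposited FPKM shown here. With GENCODE exon lengths Slc30a9 takes 9.95% and stands below Slc30a4 and Slc30a1.

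The 9 genes with enough counts for a test had log2 ratios between the libraries of -0.08 to 0.16, and none was called different. Counts of replicate 2 were set against those of replicate 1, given the library totals, by a two-sided exact binomial test over the 12302 genes whose mean count was 10 or more, which left out Slc30a10. The test compares 2 libraries of 1 group and no conditions, and it allows for counting noise only, which the libraries exceeded over all genes, so the calls say little about these genes. After Benjamini-Hochberg adjustment over all genes tested, 0 of the 9 remaining genes passed 0.05, against 14.8% of all genes. With TMM library sizes it was 0 of 9 against 14.6%, without the filter 0 of 10 against 10.8%, and with a log2 ratio of at least 0.5 in size also required 0 of 9 against 1.53%. At an unadjusted p under 0.05 the main test gave 1 of 9, against 26.8%. That gene was Slc39a7, with a log2 ratio of replicate 2 to replicate 1 of -0.08 (95% interval -0.17 to -0.0014, adjusted p = 0.174, exact binomial test). Slc39a14 had the narrowest interval, -0.06 to 0.05 around a ratio of -0.01. Slc39a8, with about 40.5 counts a library, had the widest, -0.50 to 0.83 around 0.16. The 9 ratios had a median of -0.01 against 0.01 over all genes tested. In 8 of the 9 the ratio was smaller than 0.13 in size, while the SD over all genes was 0.11 above 1000 counts and 0.18 between 100 and 1000 counts. Of the other 9 family genes tested, 1 was called: Slc39a11, named after its value was seen, which was lower in replicate 2 by a log2 ratio of -0.21 and lay just inside the threshold (adjusted p = 0.0497 by the exact binomial test).

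**Figure D4:**
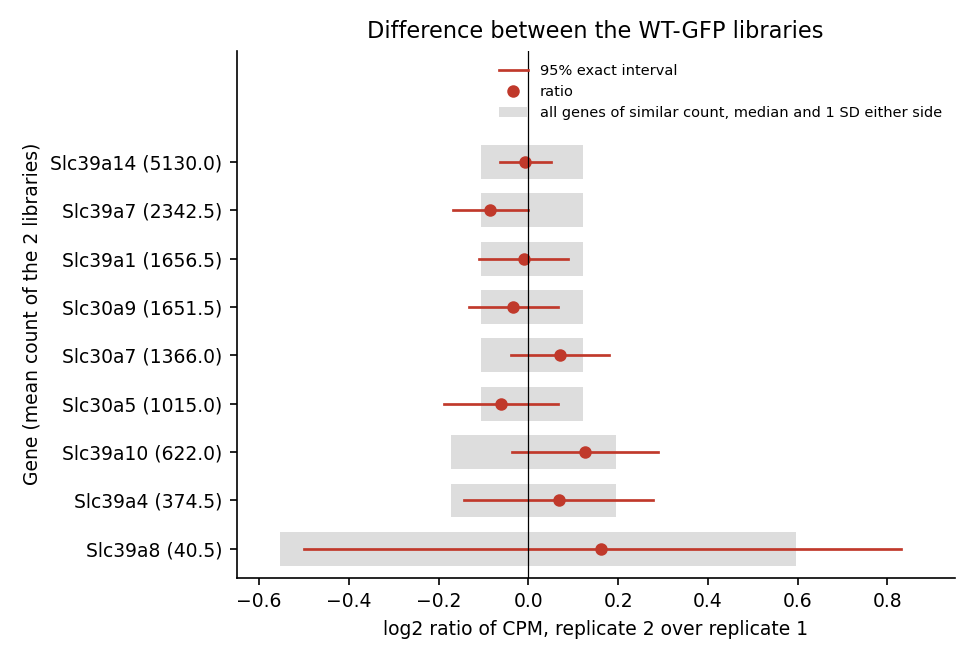
Log2 ratio of CPM in WT-GFP replicate 2 over replicate 1 for the 9 genes tested (points) with 95% exact intervals (lines), ordered by mean count, given in brackets; grey bars span 1 SD either side of the median over all genes of similar count. The points lie between -0.08 and 0.16, each inside its grey bar.

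The core of the metal response element, the motif bound by MTF1, was looked for in the promoters because Mt1 and Mt2 transcripts were abundant in these cells. Whether MTF1 set their level was not tested. Mtf1 itself was at 4.64 ± 0.235 FPKM (SD, n = 2), Mt1 at 2055 ± 60.5 FPKM and Mt2 at 3211 ± 119 FPKM. Promoter windows from RefSeq on GRCm38.p6, 250 bases before to 50 after a start, were found for 8 of the 10 genes, in 10 windows; Slc39a4 and Slc39a14 had none. The letters TGCACNC and TGCGCNC were searched on both strands. A match was found in 3 of the 10 windows, those of Slc30a10, Slc30a5 and 1 of the 2 of Slc39a8, against 25.7% of all 32851 windows of this length. The window of Slc30a10 held 3 matches, of which 2 overlap each other on opposite strands, so they read nearly the same bases. Those of Slc30a5 and Slc39a8 held 1 each, and the windows of Mt1, Mt2 and Slc30a1 held 3, 4 and 2. Of all windows, 7.11% held 2 or more matches. A match is a description of the sequence and no binding site. For each of these genes, and for Mt1 and Mt2 for comparison, the match nearest before the start that its window belongs to is shown. It is given with its flanks, on the strand of the gene, with the motif or its reverse complement in capitals. For Slc39a8 that window was chr3:135825407-135825706, which lies after the gene start given above. The window at that gene start, chr3:135825029-135825328, held no match.
Slc30a10, chr1:185454763-185454792, plus strand: ttgacatcccaaTGCGCCCctcctcccagc
Slc30a5, chr13:100833458-100833487, minus strand: acgtgtccaccaGCGCGCAggcgcaggatt
Slc39a8, chr3:135825626-135825655, plus strand: cttatctctaaaGGGTGCAgggcctgatct
Mt1, chr8:94179054-94179083, plus strand: gcggtcccgctgTGCACACtggcgctccag
Mt2, chr8:94172556-94172585, plus strand: tggggggagggcGTGTGCAggctctgtccc
In the lines for Slc30a10 and Mt1 the capitals are the motif as spelled, and in the other 3 they are its reverse complement. The windows of Slc39a1, Slc39a7, Slc39a10, Slc30a7 and Slc30a9 held no match of these letters. Neither window of Slc39a10 (chr1:46925727-46926026 and chr1:46853569-46853868) covers the start of that gene as placed above, at 46892852, so the sequence there was not searched.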

How the data were processed

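Libraries came from a stranded mRNA kit (labels' protocols). Raw counts by gene symbol were deposited by the authors in 9 numbered columns, of which 7 were not used because no label ties them to a sample. For the 2 other columns FPKM were deposited too, per the file headers. HISAT2 (2.2.1.0), mm10 and hg38 appear in the submitters' processing notes, with no role for each build; counter, annotation and strand setting: not given in the sources used here. The length behind each FPKM, computed from counts and column totals, was a whole number of bases within 0.01 for 100% of 15545 genes, so FPKM and counts are 1 measurement.

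The 10 genes and the gene lists were chosen with earlier results of these data known. All 10 genes are named, and of the other family genes those at 1 FPKM or more in both libraries with values. The comparisons of groups by edgeR's quasi-likelihood test were planned and not run, since they need the untied columns. CPM are counts over column totals; 0.5 was added to each count for log2 ratios. Exact binomial tests and intervals used scipy 1.17.1 and TMM sizes edgeR 4.0.16. The library test was tested on simulated data with counting noise alone. That simulation does not show how the test behaves with the larger spread of these libraries. Chi-square over genes was 5.25 for each of its 12301 degrees of freedom, above sampling noise, so the libraries were kept as 2. Positions and union exon lengths came from GENCODE M21 (GRCm38, the assembly of mm10). Alternatives were other gene lengths, TPM, each library alone, TMM, no filter and a minimum log2 ratio of 0.5.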

Additional observations from a re-analysis of the deposited data

How the results depend on the processing

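The number of genes at 10 FPKM or more was 5 of 10 as reported and 3 of 10 with GENCODE exon lengths, where Slc30a9 and Slc30a5 dropped below it. On the TPM scale the number was 8 of 10, and all 10 values were higher in these libraries, as for Slc39a1 at 100 TPM against 38.6 FPKM. With either library left out it ranged from 5 to 5. With GENCODE exon lengths, 7 of the 10 levels moved by more than 1 SD between the libraries. None of the 10 genes was called different between the libraries as reported, where 14.8% of all genes tested were called. The same held with TMM sizes (14.6% of all genes) and without the filter on low counts (10 genes tested, 10.8%). It also held with a minimum log2 ratio of 0.5 (1.53%). With so few genes these calls say little. The lowest adjusted p of the exact binomial test was 0.102 with TMM sizes and 0.211 without the filter, both for Slc39a7. Depth limits Slc39a8 and Slc30a10, at 42 counts or fewer a library. No paired analysis was possible because the 2 libraries with a known sample belong to 1 group. Alternatives that were meant for the group comparisons, namely DESeq2, no filter, the replicate block and leaving out each of 9 samples, were not run.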

Other observations

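Genes of other manganese, iron and copper transporters, from a list of context genes, were expressed beside the zinc transporters. Tmem165, a Golgi manganese and calcium transporter, was at 43.5 ± 1.72 FPKM (SD, n = 2) and Atp2c1, the manganese and calcium pump of the Golgi, at 15.3 ± 0.13 FPKM. The iron exporter gene Slc40a1 was at 18.1 ± 1.18 FPKM and the iron importer gene Slc11a2 at 7.61 ± 0.207 FPKM. The copper importer gene Slc31a1 was at 33.8 ± 0.543 FPKM. The manganese importer gene Slc39a14 was at 33.9 ± 0.11 FPKM in the same libraries, in which the manganese exporter gene Slc30a10 had 2 counts each. Tmem163, a zinc efflux gene outside both families, was at 0.578 ± 0.00378 FPKM.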
